A study of Homo sapiens with 32 samples.

Results

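On this exon array, 2351 of 21788 transcript clusters carry more than 1 gene symbol. Each transcript cluster groups probes along 1 transcribed region into a single value, so the RNAs of genes that share a cluster cannot be told apart. Members were the clusters with several symbols in the platform annotation (2365), less 14 placed on the Y chromosome. They were chosen by these symbols and by no measured value. Host clusters hold a symbol of a C/D box small nucleolar RNA (SNORD), an H/ACA box small nucleolar RNA (SNORA) or a microRNA (MIR), and there were 182 of them. Of the other 2169, 776 hold symbols of the same stem (such as paralogues), 545 overlapping genes, 607 genes of 1 chromosome that do not overlap, 228 genes of different chromosomes and 13 a small Cajal body RNA. The RNA came from 7 B-lymphoblastoid cell lines of the HapMap collection, which are B cells immortalised in culture, obtained from the Coriell repository. All cultures, without exception, received 200 µM of the nucleoside 4-thiouridine (4sU) for 2 h, so that RNA made in this time carried the label, and no unlabelled culture was analysed here. Each culture gave a total RNA array and an array of its labelled, newly made (nascent) RNA. GM07029, GM10835 and GM12813 had 3 independent cultures each, those of GM12813 with technical duplicates, and GM07019, GM12812, GM12814 and GM12815 had 1 culture each, which gave 13 cultures and 32 arrays.

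Most snoRNAs and many miRNAs of vertebrates are cut out of introns of longer transcripts. A snoRNA is trimmed from the spliced and debranched intron and guides the chemical modification of ribosomal RNA, C/D box RNAs the methylation of riboses and H/ACA box RNAs the conversion of uridine to pseudouridine. Its host is often a gene of the translation machinery, or a noncoding transcript of the SNHG family whose spliced RNA is degraded quickly. A miRNA hairpin is excised by Drosha and cut by Dicer, and the mature miRNA finds its targets by its seed, the bases 2 to 8 from its 5′ end. Probes of a host cluster read the host transcript as well as any small RNA exons assigned to it, and mature miRNAs and snoRNAs were not measured separately.

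Of the 136 MIR symbols in host clusters, 134 were distinct and 123 of these matched a mature sequence of RefSeq (GRCh38.p14). The sequences shown here belong to hosts whose miRNAs share a seed, so that these hosts can be set beside each other. Capitals mark the seed, and the coordinates are those of the mature miRNA in GRCh38.p14.
let-7g-5p (WDR82/MIRLET7G, chr3:52268336-52268357, minus strand): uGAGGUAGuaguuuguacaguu
let-7f-5p (HUWE1/MIR98/MIRLET7F2, chrX:53557246-53557267, minus strand): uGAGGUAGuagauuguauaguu
miR-98-5p (HUWE1/MIR98/MIRLET7F2, chrX:53556299-53556320, minus strand): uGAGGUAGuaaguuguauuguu
miR-106b-5p (MCM7/MIR106B/MIR25/MIR93, chr7:100094043-100094063, minus strand): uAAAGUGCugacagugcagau
miR-93-5p (MCM7/MIR106B/MIR25/MIR93, chr7:100093815-100093837, minus strand): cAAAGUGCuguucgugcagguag
miR-17-5p (MIR17HG and its miRNAs, chr13:91350618-91350640, plus strand): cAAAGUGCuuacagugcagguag
miR-20a-5p (MIR17HG and its miRNAs, chr13:91351072-91351094, plus strand): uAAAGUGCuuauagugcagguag
miR-15a-5p (DLEU2/MIR15A/MIR16-1/DLEU2L, chr13:50049167-50049188, minus strand): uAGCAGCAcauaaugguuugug
miR-15b-5p (SMC4/MIR15B/MIR16-2, chr3:160404607-160404628, plus strand): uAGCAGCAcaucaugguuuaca
miR-16-5p (DLEU2/MIR15A/MIR16-1/DLEU2L, chr13:50049027-50049048, minus strand): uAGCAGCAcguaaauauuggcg
miR-130b-3p (PPIL2/MIR130B, chr22:21653354-21653375, plus strand): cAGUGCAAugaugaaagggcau
miR-301a-3p (SKA2/MIR301A/SKA2P1, chr17:59151149-59151171, minus strand): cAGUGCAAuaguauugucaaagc
miR-26a-5p (CTDSP2/MIR26A2, chr12:57824658-57824679, minus strand): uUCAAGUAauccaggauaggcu
miR-26b-5p (CTDSP1/MIR26B, chr2:218402657-218402677, plus strand): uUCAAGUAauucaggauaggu
miR-103a-3p (PANK3/MIR103A1, chr5:168560904-168560926, minus strand): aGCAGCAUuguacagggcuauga
miR-107 (PANK1/MIR107, chr10:89592756-89592778, minus strand): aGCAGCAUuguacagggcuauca
miR-148b-3p (COPZ1/MIR148B, chr12:54337278-54337299, plus strand): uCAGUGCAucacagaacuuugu
miR-152-3p (COPZ2/MIR152, chr17:48037174-48037194, minus strand): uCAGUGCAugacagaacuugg
The sequence of miR-16-5p is also encoded by MIR16-2 in the SMC4 cluster (chr3:160404754-160404775, plus strand), and that of miR-26a-5p by MIR26A1 in the CTDSPL cluster (chr3:37969413-37969434, plus strand). SMC4 and DLEU2 thus host the same mature miRNA.

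All 9 B cell markers found on the array, of 10 listed, lay above background, with mean total RNA of 8.83 to 12.41 log2 units. Of the markers of other cells, 2 of 10 of T and NK cells (total RNA of 3.96 to 8.03 over the list), 2 of 8 of monocytes and granulocytes (3.50 to 6.97) and 4 of 9 of fibroblasts and epithelia (3.00 to 10.35) lay above it, and their part in the results was not tested. Background was the 95th percentile of 216 olfactory receptor clusters (6.40), and the 14160 clusters with a higher mean over all arrays were tested. Nascent RNA of GM12815 had the lowest value of the 7 lines in 45.1% of all clusters tested and in 56.1% of the host clusters, and nascent RNA of GM10835 the highest in 35.6% and 46.5%. The main counts over the 7 lines are therefore given with and without them, those of smaller classes only with them. The nascent/total ratio is nascent minus total RNA on the log2 scale, relative to the median cluster of its culture. The deposited arrays fix no absolute level, and without this centring every median moved up by about 0.77, so higher and lower mean only above or below the median cluster. The number of arrays limits the precision of all values, and those of the 4 lines with 1 culture carry no estimate of the spread between cultures.

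Shared clusters had slightly fewer high ratios than the array as a whole and lay near the clusters with 1 symbol. Within the shared clusters, the snoRNA hosts had more high than low ratios. Above background lay 155 of 182 host clusters and 1357 of 2169 others. Over the 7 lines, limma called 423 of the 1512 shared clusters higher and 483 lower, where 31.8% of all clusters tested were called higher and 31.7% lower (63.5% in either direction). Hosts had 59 higher and 49 lower clusters and a median ratio of 0.03, and the others 364 higher and 434 lower clusters and a median of -0.04. The median over all clusters was -0.01. Of the 9630 tested clusters with 1 symbol, 29.6% were higher and 32.6% lower (median -0.03), against 28.0% and 31.9% of the shared clusters (median -0.04). Of 67 snoRNA hosts, 31 (46.3%) were higher and 19 lower, with a median of 0.21 and line medians from 0.10 in GM12812 to 0.32 in GM10835. The median was 0.12 over the 64 snoRNA hosts above background in both fractions. Of 90 miRNA hosts, 29 (32.2%) were higher and 30 lower, with a median of -0.01, so their shares lay near those of the array. The difference between these kinds of host was not tested, because their genes were grouped with earlier results known. SNORD hosts (14 higher and 7 lower of 31) and SNORA hosts (21 higher and 13 lower of 43) both had a median of 0.21. Without GM12815, 62 hosts and 346 others were called higher and 46 and 411 lower, with medians of 0.22 for snoRNA and -0.02 for miRNA hosts. Without GM10835 these counts were 58 and 354 higher and 44 and 438 lower, with medians of 0.16 and 0.02. With nascent and total RNA as unpaired groups, each centred on its own median in each culture, 244 shared clusters were higher and 524 lower. That setting changes the centring as well as the pairing, so the values themselves move. The share of all clusters called is not given for the settings without a line or with unpaired groups.

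**Figure D1:**
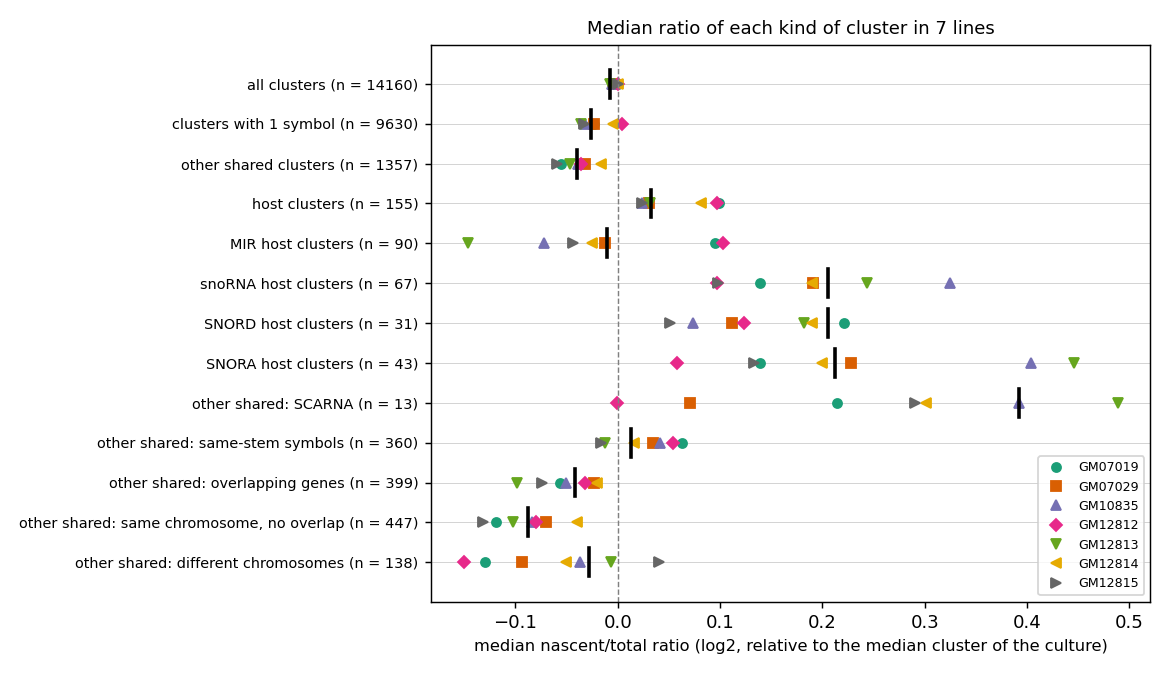
Median nascent/total ratio (log2, centred within each culture) of each kind of cluster, with 1 point for each of 7 lines and a bar at the median over clusters of the mean of the lines. The points of the snoRNA hosts lie above 0 in every line (0.10 to 0.32), those of the miRNA hosts on both sides of it (-0.15 to 0.10).

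Levels are a description only, since values of different probe sets share no scale. The median mean level of the tested snoRNA hosts was 8.90 in total and 9.97 in nascent RNA, that of the miRNA hosts 7.77 and 8.80, and that of the other shared clusters 7.71 and 8.55. Ratios at least 2-fold above the median cluster were called in 15 hosts (9.68%, against 9.19% of all clusters) and at least 2-fold below in 7 (4.52%, against 5.93%). Of the 15, 8 held a snoRNA and 7 a miRNA. In 95 of 155 hosts and 615 of 1357 others all 7 lines had the same sign, against 50.1% of all clusters.

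The highest ratio of any host belonged to the cluster of NCL with SNORD20, SNORA75 and SNORD82. NCL encodes nucleolin, the abundant protein of the nucleolus that takes part in the making of ribosomal RNA. Its total RNA lay between 6.16 (GM12812) and 8.56 (GM07029), with a median of 7.48, and its nascent RNA between 11.56 and 12.07, with a median of 11.81. The lines were close together in nascent RNA and spread in total RNA, where GM12812 lay below background. The ratio ran from 2.53 in GM07029 over a median of 3.44 to 4.67 in GM12812 (mean 3.57 ± 0.74, SD, n = 7 lines, limma adjusted p = 1.42e-06). EIF3A/SNORA19/RPL17, with a subunit of the initiation factor eIF3, had ratios from 1.17 to 1.80 (mean 1.57 ± 0.26, limma adjusted p = 6.95e-07). DKC1/SNORA36A/SNORA56 stood at 1.41 ± 0.45. DKC1 encodes dyskerin, the pseudouridine synthase that H/ACA RNAs guide, and its cluster hosts 2 such RNAs. IPO7/SNORA23, with an importin that carries ribosomal proteins into the nucleus, stood at 1.39 ± 0.43, and SRCAP/SNORA30 and EP400/SNORA49, with ATPases that remodel chromatin, at 1.30 ± 0.31 and 1.26 ± 0.32.

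Among miRNA hosts, CDC37/MIR1181, whose protein brings kinases to HSP90, had ratios from 1.01 in GM07029 over a median of 1.47 to 2.60 in GM12812 (mean 1.83 ± 0.65, limma adjusted p = 1.15e-05). Its total RNA was below background in GM07019 (6.21, ratio 2.59). WDR82/MIRLET7G, with a subunit of a histone H3 lysine methyltransferase, ran from 1.40 to 2.09 (1.70 ± 0.27), and NSRP1/MIR423, with a splicing regulator of nuclear speckles, from 0.84 to 1.90 (1.46 ± 0.36). Total RNA of NSRP1/MIR423 was below background in 4 of the 7 lines, among them GM12815 with the highest ratio, and its ratio there has no firm size. These clusters were above 0 in all 7 lines, which the rule for naming the hosts with the highest means required. GM07029 had the lowest ratio in 9 of the 10 hosts with the highest means, the exception being DKC1. It was the lowest line in 30.5% of all hosts called higher and in 17.8% of all clusters called higher. In total RNA GM07029 was the highest line in 7 of these 10 and GM10835 in 3, against 28.0% and 28.8% of all clusters called higher.

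At the low end, the 4 lowest means were those of 3 ribosomal protein genes and an elongation factor. RPS20/SNORD54 had total RNA from 10.53 to 11.83, with a median of 10.98, and nascent RNA from 9.66 to 10.46, with a median of 9.84. Its ratio lay between -2.21 in GM10835 and -1.36 in GM12815 (mean -1.82 ± 0.26, SD, n = 7 lines, limma adjusted p = 4.87e-07). RPL30/SNORA72 followed at -1.48 ± 0.56, EEF2/SNORD37, with the factor that moves the ribosome along the mRNA, at -1.31 ± 0.23, and RPS2/SNORA10/SNORA64 at -1.24 ± 0.27. The noncoding SNORD49A/SNORD65/SNHG29 stood at -1.21 ± 0.18, and EIF4G2/SNORD97, whose protein serves initiation without the cap-binding factor, at -0.96 ± 0.16. The low miRNA hosts were COPZ1/MIR148B, a subunit of the coatomer of vesicles (-1.20 ± 0.24), SKA2/MIR301A/SKA2P1, of the kinetochore (-1.15 ± 0.15), SREBF2/MIR33A, the regulator of cholesterol synthesis (-0.94 ± 0.27), and PPIL2/MIR130B, of the cyclophilin family (-0.94 ± 0.34). All 10 were below 0 in every line, which the rule for naming them required. GM10835 was the highest line for total RNA in 6 of them and for nascent RNA in 7, against 34.3% and 37.2% of all clusters called lower.

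**Figure D2:**
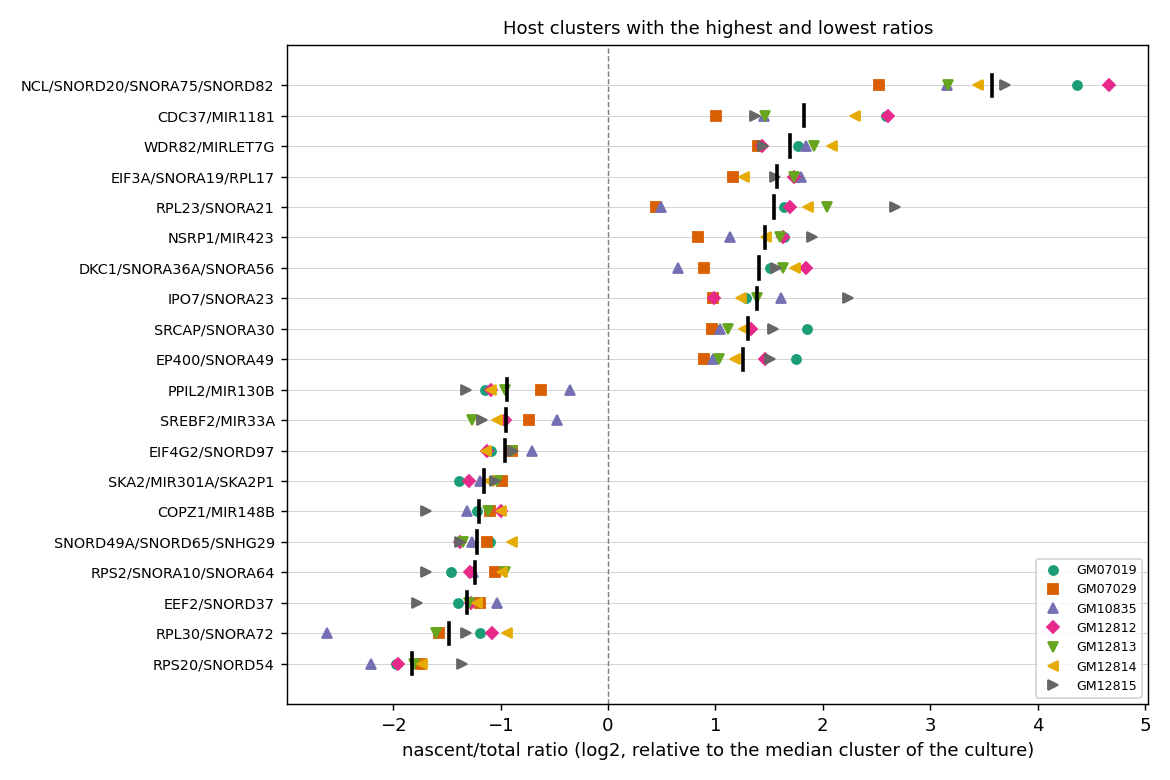
Nascent/total ratio (log2, centred within each culture) of the 10 host clusters with the highest and the 10 with the lowest means, with 1 point for each of 7 lines and a bar at the mean of the lines. NCL lies apart from the other high hosts (2.53 to 4.67), and RPL30 in GM10835 (-2.62) lies below the other lines of its cluster.

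Host clusters that list a ribosomal protein gene were called in both directions, but most of the higher calls have limits given below. Of the 11 hosts that hold such a gene, 5 were called higher and 5 lower, with a median of 0.23. RPL23/SNORA21 (1.55 ± 0.81), EIF3A/SNORA19/RPL17, RPL5/SNORA66/SNORD21/DIPK1A (0.82 ± 0.34), RPL32P3/SNORA7A/SNORA7B/RPL32 (0.68 ± 0.13) and DBH/RPL7A/SNORD36A/SNORD36B/SNORD36C/SNORD24/DBH-AS1 (0.23 ± 0.21) were higher, the last with limma adjusted p = 0.035. Total RNA of the last 3 lay below background (means of 6.37, 6.12 and 5.98), so their ratios have no firm size. Mean total RNA of the other 8 hosts, the 5 lower ones among them, lay above background. The EIF3A cluster lists RPL17 beside EIF3A, and RPL17 was lower in its own cluster. Of the 5 higher clusters, only RPL23/SNORA21 thus had neither limit. The call on the RPL7A cluster was lost without GM07019, GM12812 or GM12814 (limma adjusted p of 0.084 to 0.10). It was also lost with the fractions unpaired and each centred on its own median (0.087, limma adjusted p = 0.61). RPL17/SNORD58B/SNORD58A (-0.26 ± 0.26), RPL10/SNORA70 (-0.70 ± 0.49), RPS2, RPL30 and RPS20 were lower. RPL13/SNORD68 was not called (0.23 ± 0.29, limma adjusted p = 0.068). Leaving out all 11 clusters changed the snoRNA hosts little, to 26 higher and 14 lower of 56 with a median of 0.20.

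Further hosts of the snoRNA particles and of translation lay between these ends. NOP56, with 5 snoRNAs and MIR1292, and NOP58/SNORD11 encode core proteins of the C/D box particle. Both were higher, with ratios of 0.63 ± 0.33 and 0.63 ± 0.41 over 7 lines. The lowest value of NOP56 was 0.05 in GM12815 and that of NOP58 0.02 in GM10835. EIF4A2/SNORA4/SNORD2/SNORA63/SNORA81, with an RNA helicase of translation initiation, was higher (0.59 ± 0.17), whereas EIF4A1/SNORA48/SNORA67/SNORD10, with its paralogue, was not called (-0.15 ± 0.30, limma adjusted p = 0.22). TPT1/SNORA31/RCN1/TPT1-AS1, with the translationally controlled tumour protein, was higher at 0.59 ± 0.36 and EEF1B2/SNORD51/SNORA41, with an exchange factor for elongation factor 1, lower at -0.66 ± 0.20. CNOT1/SNORA46/SNORA50A, the scaffold of the deadenylase that shortens poly(A) tails, was lower at -0.83 ± 0.20.

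Clusters with a noncoding snoRNA host gene went both ways. SNHG7/SNORA17A/SNORA17B had ratios from 0.66 in GM12812 to 1.35 in GM12814 (0.97 ± 0.23, limma adjusted p = 5.72e-06). SNHG32/SNORD52 stood at 0.70 ± 0.25, MATR3/SNHG4/SNORA74A at 0.60 ± 0.19 and SNORA44/SNORA16A/SNORA61/SNHG12 at 0.57 ± 0.24, and all of them were called higher. Total RNA of SNHG7 had a mean just below background (6.39). SNHG29 went the other way, at -0.89 or lower in each line. The cluster of GAS5 and its 7 SNORD RNAs, shared with CENPL, was not called (0.26 ± 0.39, limma adjusted p = 0.092), with values of -0.19 in GM12812 and 0.83 in GM10835. It passed without GM12812 (0.33, limma adjusted p = 0.039), with the stricter filter (0.046) and with 13 cultures as values (0.0043). SNHG11/SNORA71E/SNORA60 (0.21 ± 0.22) and EPB41L4A-AS1/SNORA13/EPB41L4A (0.08 ± 0.34) were not called either, though the latter was without GM10835 (0.20, limma adjusted p = 0.046). RCC1/SNHG3/RAB42, with a snoRNA host gene but no snoRNA symbol, was higher at 0.71 ± 0.20. SNHG1, SNHG5, SNHG6, SNHG8, SNHG15, SNHG16 and ZFAS1 are not in a shared cluster.

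Genes of the translation machinery often begin with a 5′ terminal oligopyrimidine tract, a C at the first base followed by C and T. The annotated start of each host gene was read from RefSeq promoters (GRCh38.p14) for a C with at least 4 C or T directly after it, on the strand of the gene and at the start only. This was found in 16 of 69 snoRNA host genes (23.2%), in 6 of 104 genes of miRNA hosts (5.77%) and at 4.04% of all 27305 promoters. Starts of noncoding hosts with and without it are shown, 15 bases either side, with capitals for the C and the pyrimidines that follow.
SNHG12 (chr1:28581859-28581888, minus strand): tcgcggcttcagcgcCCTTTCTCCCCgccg
SNHG32 (chr6:31834901-31834930, plus strand): ctcgccattttagttCTTTTTgcgaagtgg
SNHG7 (chr9:136728170-136728199, minus strand): gcttcccttctcgtcctctgcgtgcgccgg
SNHG29 (chr17:16438972-16439001, plus strand): cccctccttttgtgaggattgggatattcc
The 13 tested snoRNA host clusters with such a start had a median ratio of 0.59 (10 higher, 1 lower), and the 44 without it a median of 0.20 (19 higher, 12 lower). The 5 miRNA host clusters with it had a median of -0.03 (0 higher, 2 lower), as had the 76 without it (26 higher, 27 lower), and 31.8% and 31.7% of all clusters were called higher and lower. EEF2 is the lower cluster among the 13. RPL7A is the only ribosomal protein gene among the 16 genes, which also include EP400 and IPO7, described above. The split therefore does not set genes of the translation machinery against other genes. Tested snoRNA hosts with no gene among the RefSeq promoters are in neither group. An annotated start can lie some bases from the start in use, and a missing match says only that these letters are not at that position.

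Hosts of miRNAs with the same seed agreed in some families and parted in others. Hosts of the let-7 seed were both higher. WDR82 has been given, and HUWE1/MIR98/MIRLET7F2, with a ubiquitin ligase, ran from 0.32 in GM07029 over a median of 0.62 to 1.41 in GM07019 (0.77 ± 0.40, n = 7 lines, limma adjusted p = 0.000321). MCM7/MIR106B/MIR25/MIR93, with a subunit of the replicative helicase, ran from 0.52 in GM12815 to 1.30 in GM12812 (1.00 ± 0.25, limma adjusted p = 6.11e-06). MIR17HG, the noncoding host of the miR-17 to miR-92a group, shares the seed of miR-106b and ran from -0.43 in GM07019 to 1.30 in GM10835. It was not called (0.37 ± 0.61, limma adjusted p = 0.097), and it passed the test without GM07019 (0.50, limma adjusted p = 0.030) or GM12812 (0.48, limma adjusted p = 0.040), and with 13 cultures as values (0.60, limma adjusted p = 0.000865). MCM7 and MIR17HG also share the seed of miR-25 and miR-92a with TMEM245/MIR32, which was lower (-0.55 ± 0.30).

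In the miR-15 family the hosts lay on opposite sides. SMC4/MIR15B/MIR16-2, with a subunit of condensin, was higher, with values from 0.05 in GM10835 over a median of 0.45 to 1.07 in GM12815 (0.47 ± 0.36, limma adjusted p = 0.00508). The call was lost with nascent and total RNA as unpaired groups, each centred on its own median (0.32, limma adjusted p = 0.11). DLEU2/MIR15A/MIR16-1/DLEU2L, a noncoding RNA of a region often lost in chronic lymphocytic leukaemia, was lower, with values from -1.43 in GM12812 to -0.16 in GM12813 (-0.61 ± 0.42, limma adjusted p = 0.00151). The values of SMC4 and DLEU2 did not overlap between lines. Total RNA of DLEU2 (mean 6.32) was below background. Its nascent RNA (mean 6.48) was below it in 3 lines, among them GM12812 (5.88). The ratio of DLEU2, and so its distance from SMC4, has no firm size. Among hosts of the pantothenate kinases, PANK3/MIR103A1 was higher (0.70 ± 0.25) and PANK1/MIR107 was not called (-0.11 ± 0.22). Of the small phosphatases that act on RNA polymerase II, CTDSP1/MIR26B (-0.81 ± 0.36) and CTDSP2/MIR26A2 (-0.73 ± 0.39) were lower, with their highest values in GM10835 (-0.21 and -0.12) and their lowest in GM12815 (-1.34 and -1.28). CTDSPL/MIR26A1, whose total RNA lay below background, was not called (0.13 ± 0.16). Hosts of miR-130b and miR-301a (PPIL2 and SKA2) were both lower, as were those of miR-148b and miR-152 (COPZ1, and COPZ2 at -0.38 ± 0.37), which are paralogues of each other.

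**Figure D3:**
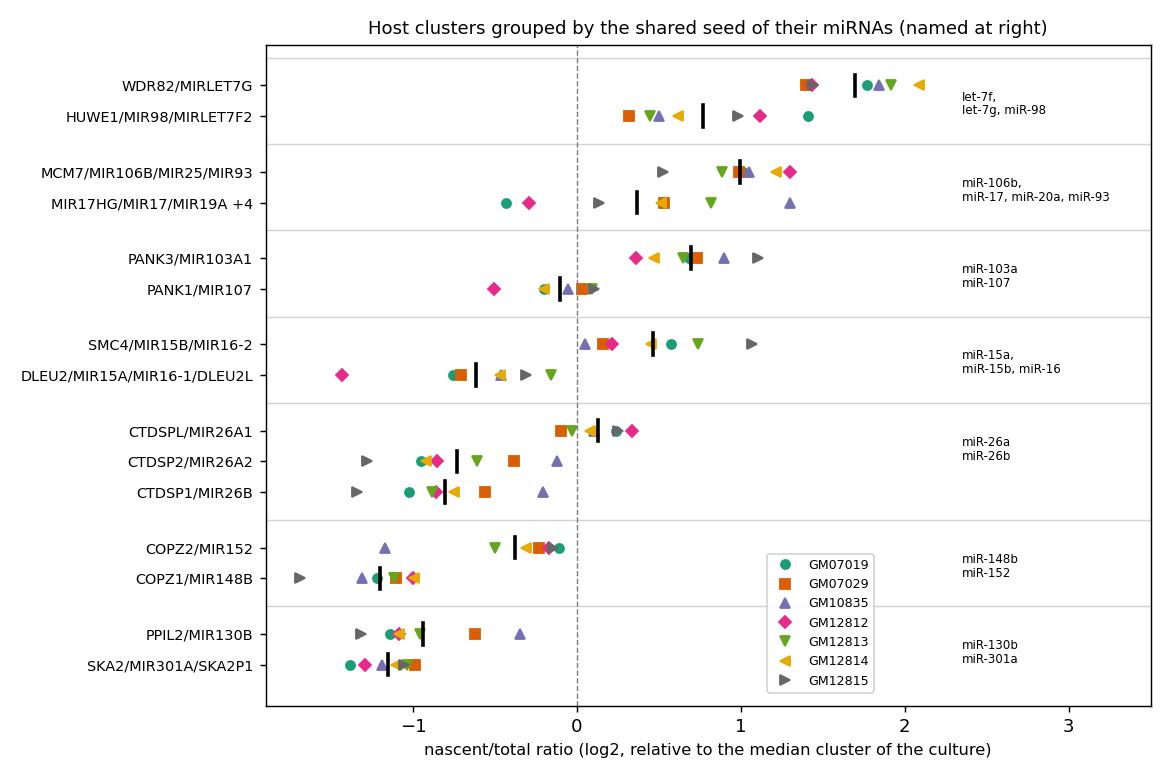
Nascent/total ratio (log2, centred within each culture) of host clusters grouped by the seed their miRNAs share, with 1 point for each of 7 lines and a bar at the mean. The hosts of the let-7 seed lie above 0 in all lines, those of miR-130b and miR-301a below it, and SMC4 (0.05 to 1.07) and DLEU2 (-1.43 to -0.16) on opposite sides. Mean total RNA of DLEU2 was below background, as was its nascent RNA in 3 lines.

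Hosts of other miRNAs also lay on both sides. EP300/MIR1281, a histone acetyltransferase, stood at 1.09 ± 0.24, CDK9/MIR2861, the kinase that releases paused RNA polymerase II, at 1.00 ± 0.17, TAF4/MIR1257, of the general factor TFIID, at 0.80 ± 0.09, and NFYC/MIR30E/MIR30C1, a CCAAT-binding subunit, at 0.51 ± 0.19, all called higher. WWP2/MIR140, with a ubiquitin ligase, was higher at 1.05 ± 0.19. VMP1/MIR21/CLTC, with an autophagy protein and the heavy chain of clathrin, was lower at -0.77 ± 0.18, ZRANB2/MIR186, with a splicing factor, at -0.64 ± 0.19, and R3HDM1/MIR128-1 at -0.84 ± 0.39. HNRNPK/MIR7-1, an abundant RNA-binding protein, was not called (-0.14 ± 0.26), whereas AEN/MIR7-2, an exonuclease of the p53 response, was higher (0.68 ± 0.31).

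The filter on the mean over all arrays left out 27 hosts. They include the brain transcripts MIR137/MIR137HG, MIR9-1HG/MIR9-1, HTR2C/SNORA35/MIR1298 and ARPP21/MIR128-2, the axon guidance genes SLIT2/MIR218-1 and SLIT3/MIR218-2, and HOXB7/MIR196A1 and the HOXC4 to HOXC6 cluster with MIR196A2. Their total RNA lay between 3.67 (COBLL1/SNORA70F) and 6.41 (ATP2B4/SNORA77). Of the 27, which were not tested, 7 hold a snoRNA.

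Among the other shared clusters, the highest mean ratio was that of SAFB/SAFB2. These genes encode scaffold attachment factors of the nucleus and lie side by side. The cluster had total RNA from 7.36 to 8.17 and nascent RNA from 10.42 to 11.06. Their ratio lay between 1.93 and 2.55, with a median of 2.41 (mean 2.32 ± 0.23, SD, n = 7 lines, limma adjusted p = 4.81e-07). ALG11/UTP14C/UTP14A, with a mannosyltransferase and factors of the small ribosomal subunit, stood at 2.24 ± 0.27, RPF1/GNG5, with a ribosome production factor and a G protein subunit, at 1.95 ± 0.44, and MON1B/SYCE1L, with a factor of late endosomes, at 1.83 ± 0.31. LIMS1/LIMS3, adaptors of focal adhesions, had values of 0.36 and 0.53 in GM07029 and GM10835 and of 1.92 to 2.69 in the other lines (1.76 ± 0.93). Total RNA of ALG11/UTP14C/UTP14A was below background in 4 of the 7 lines and that of LIMS1/LIMS3 in 3 lines with high ratios, so that these ratios have no firm size either. Total RNA of SNRNP35/RILPL1 (mean 4.99), HSPA1A/HSPA1B (5.74) and CROCCP2/CROCC (6.20) lay below background, so their ratios of 1.88 ± 0.16, 1.83 ± 0.71 and 1.79 ± 0.29 have no firm size. HSPA1A/HSPA1B, the inducible HSP70 pair, ranged in nascent RNA from 6.10 in GM12815, which is below background, to 9.79 in GM10835.

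The lowest ratio of all shared clusters was that of EIF4B/TNS2-AS1, with a cofactor of the initiation helicase. Its total RNA had a median of 9.86, with GM10835 lowest at 7.94, and its nascent RNA lay between 6.47 and 8.14. The ratio was -0.64 in GM10835 and between -3.81 and -2.63 in the other 6 lines (mean -2.87 ± 1.06, limma adjusted p = 1.31e-05). NTAN1/PDXDC1, with an amidase of protein N-termini, and IL2RG/CXorf65, with the shared receptor chain of the interleukin-2 family, were the most even, with ratios of -2.10 ± 0.16 and -1.74 ± 0.10. The amylase cluster of AMY2B, AMY1A, AMY1B, AMY1C, AMY2A and ACTG1P4 ran from -3.11 in GM12812 to -1.54 in GM12815 (-2.16 ± 0.55). ERV3-1/ZNF117, with a retroviral envelope gene and a zinc finger gene, ran from -4.28 in GM12812 to -1.13 in GM10835 (-2.13 ± 1.09). Its nascent RNA was below background in GM12812 (5.17) and in GM10835 (6.29), so both ends have no firm size. PCLAF/CSNK1G1, with a partner of PCNA in replication (-1.82 ± 0.31), DTD2/BBS5/HEATR5A (-1.74 ± 0.53) and FOCAD/HACD4 (-1.72 ± 0.30) completed the 8 lowest.

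**Figure D4:**
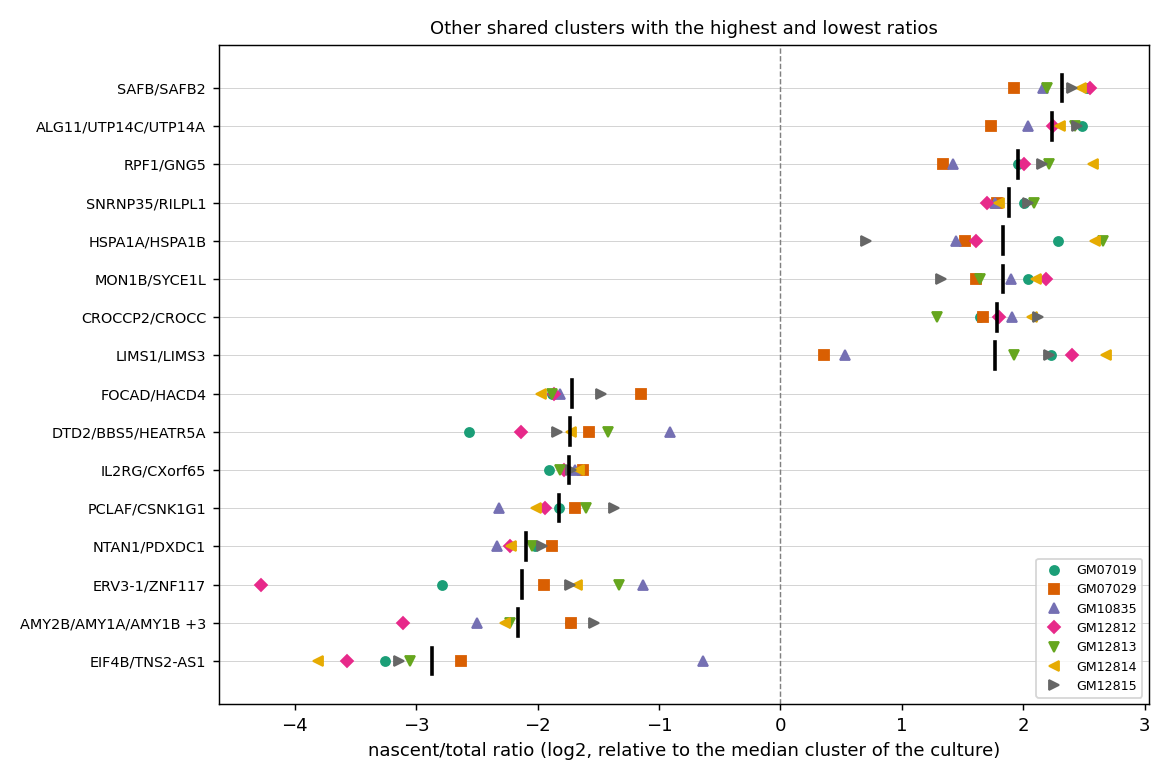
Nascent/total ratio (log2, centred within each culture) of the 8 other shared clusters with the highest and the 8 with the lowest means, with 1 point for each of 7 lines and a bar at the mean. EIF4B/TNS2-AS1 in GM10835 (-0.64) and ERV3-1/ZNF117 in GM12812 (-4.28) lie away from the other lines of their clusters.

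By kind of sharing, same-stem symbols, such as paralogues and gene and pseudogene pairs, had 108 of 360 clusters higher and 91 lower (median 0.01). Overlapping genes had 108 higher and 133 lower of 399 (median -0.04), genes of 1 chromosome that do not overlap 102 and 158 of 447 (median -0.09), and genes of different chromosomes 39 and 49 of 138 (median -0.03). Clusters that hold a pseudogene had 66 higher and 84 lower of 248. Of all clusters tested, 31.8% were called higher and 31.7% lower. HLA-B/HLA-C, the class I antigens, was lower (-1.47 ± 0.34), as was H2BC12/H2BC12L, with a histone H2B gene (from -2.11 to -0.24 over the 7 lines). EEF1A1/EEF1A1P9, the elongation factor that delivers tRNA, was higher (0.87 ± 0.27) and so was MCL1/ADAMTSL4/ADAMTSL4-AS1, with a short-lived survival protein (0.60 ± 0.22). HSP90AB1/HSP90AB3P, the constitutive HSP90, was not called (0.18 ± 0.36), but was without GM10835 (0.29, limma adjusted p = 0.021) and with the trend on signal removed (0.91, limma adjusted p = 8.8e-05). Of the clusters of nucleophosmin, LMBRD1/NPM1 was higher (0.28 ± 0.31, limma adjusted p = 0.036). The call was lost without GM12813, GM12814 or GM12815 (limma adjusted p of 0.086 to 0.11). It was also lost with the fractions unpaired and each centred on its own median (0.14, limma adjusted p = 0.43). CLEC2D/NPM1 was not called (0.18 ± 0.17, limma adjusted p = 0.067), but passed the test without GM12812 (0.034), with 13 cultures as values (0.0048), no filter (0.041), quantile normalization (0.024), the stricter filter (0.027) and the trend on signal removed (0.48, adjusted p = 0.000165).

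A gene symbol does not fix the value of the clusters that share it. The symbols found in more than 1 tested shared cluster numbered 354, and the median spread between the clusters of a symbol was 0.50, the widest 2.23. RPL5 stood at 0.82 with SNORA66 and SNORD21, at -0.04 with DIPK1A alone and at -1.03 ± 0.18 with ARFGAP3 and PACSIN2. RPL17 stood at 1.57 in the EIF3A cluster and at -0.26 in its own, and RPL10 at -0.70 with SNORA70, -0.51 with DNASE1L1 and -0.91 with NDUFS5. The overlapping FANCI and POLG, a crosslink repair protein and the mitochondrial polymerase, share 2 clusters with ratios of -1.61 and 0.50. NSRP1 stood at 1.46 with MIR423 and at -0.28 with MIGA1, and PLEKHM1 at 1.09 and 0.08 in 2 clusters that both list MIR4315-1.

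Genes for the proteins that make and use these small RNAs, mostly in clusters of 1 gene, had calls in both directions. So had the array, with 31.8% of all clusters tested called higher and 31.7% lower. Of 43 genes listed (snoRNA particle proteins and their assembly factors, intron debranching and trimming, miRNA processing and nonsense-mediated decay), 39 were tested in 41 clusters, with 17 higher, 10 lower and 14 not called and a median of 0.07. ZNHIT6, an assembly factor of the C/D box particle, had the highest ratio (2.24 ± 0.34). Its partners PIH1D1 and RPAP3 were lower (-1.15 ± 0.36 and -0.98 ± 0.23), as were the methyltransferase FBL (-0.72 ± 0.55) and the H/ACA protein NOP10 (-0.73 ± 0.35). DICER1 (1.13 ± 0.35) and DGCR8 (0.86 ± 0.16) were higher and DROSHA lower (-0.28 ± 0.31). The decay factors UPF1 (1.13 ± 0.35) and UPF2 (1.12 ± 0.22) were higher.

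The study also asked whether the ratio differs between lines, and 3 lines had replicate cultures for it. Limma's moderated F test called 375 of 1512 shared clusters, 38 of 155 hosts and 17 of 67 snoRNA hosts, where 25.4% of all clusters were called. These counts lie near the array's share. With first arrays in place of the mean of duplicates 216 shared clusters and 24 hosts were called, with no filter 208 and 23, and by the unmoderated F test 241 shared clusters. The counts were also smaller without some cultures. Without GM10835 replicate 1, 2 or 3, 235, 219 and 172 shared clusters were called, and without GM12813 replicate 1, 2 or 3, 240, 181 and 214. For hosts these were 25, 23 and 20, and 23, 19 and 22. Without GM07029 replicate 1, 58 hosts were called. The share of all clusters called is not given for these other settings, so whether these changes are particular to shared clusters was not tested. Of the 21 miRNA hosts called, 15 had their highest ratio in GM10835 (71.4%, against 40.3% of all clusters called).

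RPL23/SNORA21 had the widest ratio difference of the hosts. Its 3 cultures stood at 0.81, 0.16 and 0.37 in GM07029, at 0.46, 0.61 and 0.41 in GM10835 and at 2.24, 1.86 and 2.02 in GM12813. GM12813 did not overlap the others, and the range of line means was 1.60 (limma F adjusted p = 0.000327). Its total RNA was lower in GM12813 (7.70 ± 0.19, n = 3 cultures) than in GM07029 (9.23 ± 0.27) and GM10835 (9.56 ± 0.15), while nascent RNA differed by 0.45. NOP58/SNORD11 and DKC1/SNORA36A/SNORA56, both with proteins of snoRNA particles, were highest in GM12813 as well. NOP58 stood at 1.09 ± 0.21 in GM12813 and at 0.19 ± 0.14 and 0.02 ± 0.18 in GM07029 and GM10835 (limma F adjusted p = 0.00141), and DKC1 at 1.63 ± 0.09, 0.89 ± 0.21 and 0.65 ± 0.03 (limma F adjusted p = 0.00168). Total RNA of NOP58 and DKC1 was lowest in GM12813 as well.

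In 4 other hosts GM10835 stood apart. RPL30/SNORA72 was lower there (-2.63, -2.63 and -2.60) than in GM07029 (-1.57 ± 0.30) and GM12813 (-1.60 ± 0.41), with limma F adjusted p = 0.00737. EPB41L4A-AS1/SNORA13/EPB41L4A was negative in its 3 cultures (-0.73, -0.64 and -0.54) and at or above 0 in those of GM07029 (0.19 ± 0.19) and GM12813 (0.45 ± 0.18, limma F adjusted p = 0.000959). COPZ2/MIR152 stood at -1.17 ± 0.10 in GM10835, -0.23 ± 0.18 in GM07029 and -0.50 ± 0.14 in GM12813. In each of these, total and nascent RNA were both highest in GM10835, total RNA by the larger step (ranges of 1.77 and 0.79 for RPL30, 1.66 and 0.88 for EPB41L4A-AS1 and 1.60 and 0.73 for COPZ2). RPL10/SNORA70 went the other way, with 0.25 ± 0.29 in GM10835, -0.50 ± 0.19 in GM07029 and -0.89 ± 0.27 in GM12813. ATP5MK/MIR1307, with a subunit of the mitochondrial ATP synthase, was highest in GM12813 (-0.21 ± 0.28), against -1.02 ± 0.22 and -1.25 ± 0.09. Among the 38 hosts with a called ratio, total RNA had a wider range of line means than nascent RNA in 25, as in 72.4% of all clusters called, and the ratio shares its arrays with both.

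**Figure D5:**
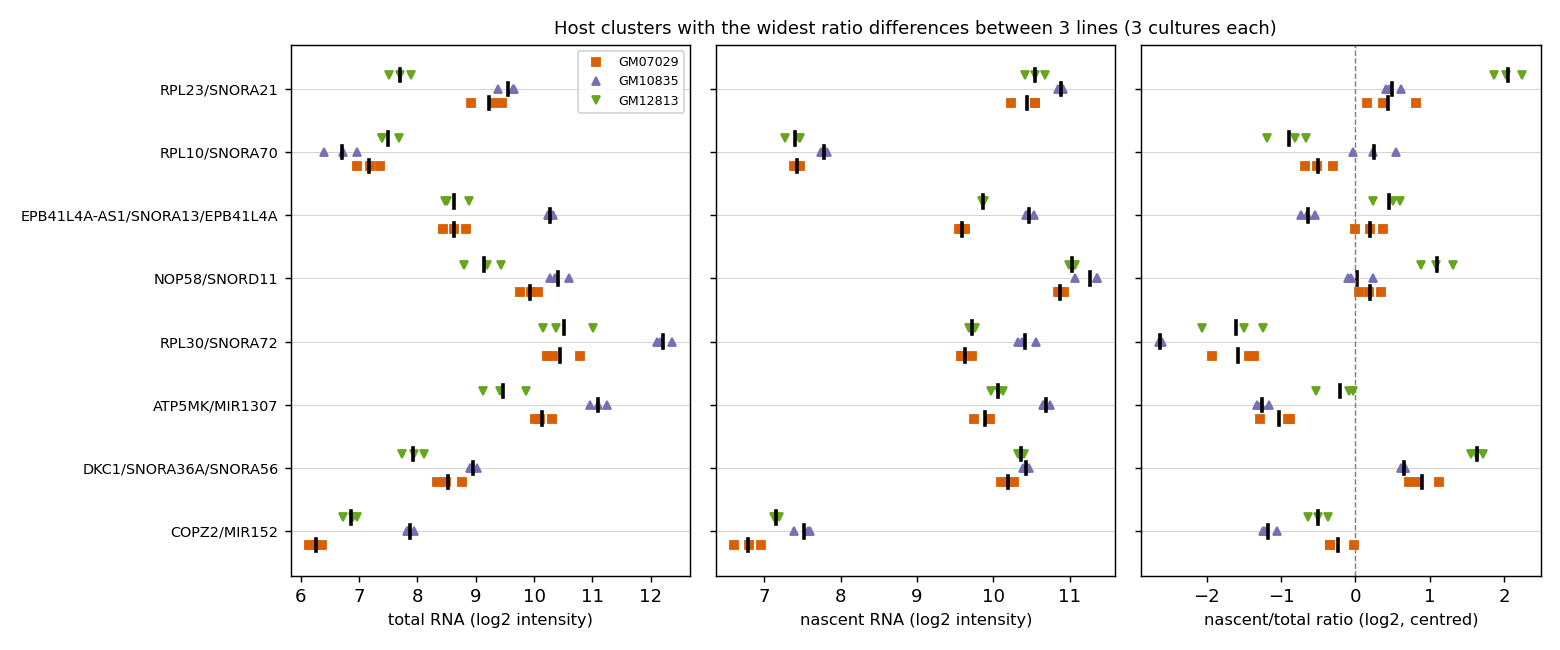
Total RNA (log2 intensity), nascent RNA (log2 intensity) and their ratio (log2, centred within each culture) of the 8 host clusters with the widest ratio differences, with 1 point for each of 3 cultures of GM07029, GM10835 and GM12813 and a bar at the mean of each line. GM12813 lies lowest in total RNA and highest in ratio for RPL23, NOP58 and DKC1.

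Of the other shared clusters, LBHD1/CSKMT, with the methyltransferase of citrate synthase, differed most. Its ratio stood at 2.25 ± 0.22 in GM12813, 0.29 ± 0.66 in GM07029 and -0.68 ± 0.29 in GM10835 (limma F adjusted p = 0.000306), its total RNA at 6.59, 8.01 and 9.82 and its nascent RNA at 9.64, 9.07 and 9.96. CHURC1/FNTB, with the beta subunit of farnesyltransferase, stood at 1.81 ± 0.33, 0.11 ± 0.21 and -0.31 ± 0.08 in the same order. MRPL53/CCDC142, with a mitochondrial ribosomal protein, was lowest in GM10835 (-1.31 ± 0.10, against 0.03 ± 0.30 in GM07029 and 0.44 ± 0.18 in GM12813). EIF4B/TNS2-AS1 was highest there (-0.64 ± 0.21, against -2.63 ± 0.61 and -3.05 ± 0.27), where its total RNA was lowest and its nascent RNA was not called (limma F adjusted p = 0.67). H2BC12/H2BC12L ran from -2.11 ± 0.51 in GM07029 to -0.24 ± 0.51 in GM12813, and SLC25A33/RPL9P11, with a mitochondrial pyrimidine carrier, from 0.38 ± 0.49 to 2.22 ± 0.59. METTL2A/METTL2B, tRNA methyltransferases, had mean total RNA below background (5.71) and varied by up to 1.20 (SD) between cultures of a line. Its call (limma F adjusted p = 0.021) was lost without GM12813 replicate 1 (0.066), with no filter (0.053) and by the unmoderated F test (0.12), by which H2BC12/H2BC12L (0.054) and SLC25A33/RPL9P11 (0.051) were lost too. CCDC144BP/CCDC144A/CCDC144CP/USP32P2 stood at -2.12 in GM07029, -1.71 in GM10835 and -0.41 in GM12813. Its call was lost by the unmoderated F test as well (adjusted p = 0.060). Total (5.11) and nascent RNA (5.50) of this cluster were below background in GM12813, so the difference has no firm size.

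Levels were called different between the 3 lines more often than ratios. Unlike the ratios, levels were not centred on each culture's median, so an offset of a whole array can enter the level calls. Medians of all arrays ran from 6.74 to 6.95 in total and from 7.58 to 7.92 in nascent RNA, and their part in these counts was not tested. In total RNA 790 shared clusters and 88 hosts were called, where 56.2% of all clusters were, and in nascent RNA 828 and 104, where 56.7% were. The hosts' share in nascent RNA was 67.1%, and that of the snoRNA hosts 74.6% (50 of 67). In 41 of these 50 GM10835 was the highest line (82.0%, against 69.1% of all clusters called), and in 37 GM07029 the lowest. RPS2/SNORA10/SNORA64 had nascent RNA of 8.94, 8.95 and 8.88 in GM07029, 10.32, 10.07 and 9.96 in GM10835 and 8.85, 8.90 and 9.00 in GM12813 (limma F adjusted p = 1.81e-06). Its total RNA stood at 9.21, 10.54 and 9.07, so that both fractions were higher in GM10835 and its ratio was not called (limma F adjusted p = 0.42). NOP56 behaved alike, with nascent RNA of 10.80 ± 0.22 in GM10835, 9.47 ± 0.25 in GM07029 and 9.74 ± 0.23 in GM12813. CLCN5/MIR188, with a chloride/proton exchanger of endosomes, and TLN2/MIR190A, with a talin, were highest in GM07029 instead (nascent RNA of 7.94 ± 0.29 and 7.80 ± 0.12, against 6.51 ± 0.11 and 6.52 ± 0.11 in GM10835).

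Of the other shared clusters, LBHD1/CSKMT, given above, had a wide range in total RNA (3.23) and a narrower one in nascent RNA (0.90), whereas the 5 that follow had wide ranges in both fractions. FAM30A, for which the platform lists older symbols that are now a single noncoding gene of B cells, had total RNA of 5.97 ± 0.35 in GM07029, 9.96 ± 0.10 in GM10835 and 8.83 ± 0.12 in GM12813, and nascent RNA of 6.85 ± 0.21, 10.90 ± 0.05 and 9.39 ± 0.08 (limma F adjusted p = 2e-09). KMO/OPN3, with an enzyme of tryptophan breakdown and an opsin, ran the other way, with total RNA of 8.86 ± 0.25, 5.21 ± 0.27 and 7.26 ± 0.33. Total RNA of FAM30A in GM07029, of KMO/OPN3 and GRPR/MAGEB17 in GM10835, and nascent RNA of KMO/OPN3 in GM10835 (6.35) lay below background, so these differences and ratios have no firm size. GRPR/MAGEB17, with a peptide receptor, had nascent RNA of 10.10 ± 0.14, 6.68 ± 0.15 and 8.23 ± 0.03, and FBXO17/SARS2, with the mitochondrial seryl-tRNA synthetase, total RNA of 6.69 ± 0.07, 9.76 ± 0.08 and 7.11 ± 0.14. HLA-B/HLA-C was lowest in GM12813, with total RNA of 10.92 ± 0.34 against 12.76 ± 0.08 and 13.22 ± 0.04, and nascent RNA of 10.16 ± 0.13 against 12.07 ± 0.03 and 12.93 ± 0.06. The ratio of FBXO17/SARS2 was called between lines (-0.38, -1.03 and -0.56, limma F adjusted p = 0.00619). The ratios of FAM30A, KMO/OPN3, GRPR/MAGEB17 and HLA-B/HLA-C were not called between lines (limma F adjusted p of 0.063 to 0.18), which does not show that they are equal.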

How the data were processed

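The deposited values are log2 intensities, 1 per transcript cluster and array, as the authors summarised them. Affymetrix Power Tools and build hg18 are named in the submitters' processing notes. For the summary algorithm, background correction and normalization, the method is not given in the sources used here. Clusters were named from the platform's table, and 5367 of 5432 symbols were matched to RefSeq. The 14 clusters on the Y chromosome were left out of all tests, and 9 members with a Y-linked relative are counted but not named. Per the labels' protocols, ribosomal RNA was reduced before labelling. Technical duplicates were averaged, nascent minus total log2 values were centred on each culture's median, and limma 3.58.1 in R 4.3.3 (two-sided, with eBayes and an intensity trend) tested 7 line means against 0, or compared 9 cultures of 3 lines by the moderated F test. Replicates are independent cultures. P-values were adjusted by Benjamini and Hochberg over 14160 clusters, with a threshold of 0.05. Clusters with olfactory receptor, immunoglobulin or T cell receptor segments are not named. Named were the 10 highest and 10 lowest hosts and 8 and 8 others by mean ratio with the same sign in all lines, the 8 widest ratio differences between lines and 5 widest level differences of each kind, and a list of genes whatever their values. Other clusters were named after their values were seen. Members and lists were chosen with earlier results of these data known. The steps were tested on simulated data. Alternatives were no centring, other filters, quantile normalization, other treatments of cultures and duplicates, and lines or cultures left out.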

Additional observations from a re-analysis of the deposited data

Results flagged for a closer look

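GM10835 lay far from the other 6 lines in 5 of the named ratios. It stood at -2.62 for RPL30/SNORA72 (the next line at -1.60), at -0.64 for EIF4B/TNS2-AS1 (the next at -2.63), at -0.64 for EPB41L4A-AS1/SNORA13/EPB41L4A (the next at 0.06), at -1.17 for COPZ2/MIR152 (the next at -0.50) and at -1.31 for MRPL53/CCDC142 (the next at 0.03). By chance about 1 in 20 groups is marked in this way, and the named ratios numbered 93, so a few marks would arise by chance alone. These clusters were also in part named for their differences between lines.

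In 5 clusters every culture of GM12813 was positive and every culture of GM10835 negative, with limma's F test of the difference between lines passed. The range of line means was 1.08 for EPB41L4A-AS1/SNORA13/EPB41L4A (limma adjusted p = 0.000959), 2.93 for LBHD1/CSKMT (0.000306), 2.12 for CHURC1/FNTB (0.000113), 1.75 for MRPL53/CCDC142 (0.000183) and 0.98 for HSP90AB1/HSP90AB3P (0.00431). In EPB41L4A-AS1/SNORA13/EPB41L4A the cultures of GM07029 were at 0.00 or above. All of these clusters but HSP90AB1/HSP90AB3P were among those with the widest called ratio differences between the 3 lines. Their pattern and test thus come from the values that chose them and are no separate support. The share of all clusters with this pattern is not given.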

How the results depend on the processing

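Without centring, all ratios lay higher. Shared clusters then had 1260 higher and 74 lower calls, hosts 128 and 7 and the others 1132 and 67, with median ratios of 0.74, 0.81 and 0.73, and 0.98 for snoRNA and 0.76 for miRNA hosts. The sign of 18 named ratios turned, to 0.076 for RPL10/SNORA70, 0.33 for ATP5MK/MIR1307, 0.40 for COPZ2/MIR152, 0.71 for KMO/OPN3, 0.53 for FBXO17/SARS2, 0.64 for CLCN5/MIR188, 0.76 for C3orf52/MIR567/GCSAM, 0.16 for DLEU2/MIR15A/MIR16-1/DLEU2L, 0.62 for EIF4A1/SNORA48/SNORA67/SNORD10, 0.11 for EEF1B2/SNORD51/SNORA41, 0.74 for DIPK1A/RPL5, 0.26 for DNASE1L1/RPL10, 0.57 for BCAS3/RPL23A, 0.39 for TMED1/DNM2, 0.041 for CTDSP2/MIR26A2, 0.67 for PANK1/MIR107, 0.13 for ZRANB2/MIR186 and 0.0017 for VMP1/MIR21/CLTC. With no filter, more clusters were tested, and 770 of 2351 shared clusters and 717 of 2169 others were lower. The share of all clusters is not given for that setting. With no replicate block (nascent against total RNA as unpaired groups, each centred on its own median), 244 shared clusters and 198 others were higher, and 524 and 475 lower. With the trend of the ratio on signal removed, an alternative chosen after seeing the data, the median was -0.068 for shared clusters and -0.079 for the others. With background passed in both fractions, the snoRNA host median was 0.12. The setting with no replicate block changed the centring as well as the pairing, so its counts do not show the effect of pairing alone. The cause was not tested for the trend and filter settings. Between 3 lines, ratio calls in shared clusters and hosts were 216 and 24 with first arrays only, 208 and 23 with no filter, 246 and 25 with the replicate block, and 241 shared clusters by the unmoderated F test, with 62 hosts at an unadjusted p under 0.05. Replicate numbers did not pair the cultures (mean correlation of same-numbered cultures -0.07 in the ratio, against 0.04 for the rest). Leaving out a culture gave 172 to 552 shared clusters and 19 to 58 hosts, with no share of all clusters given beside these counts. Leaving out a line kept host calls over 7 lines at 55 to 62 higher and 44 to 48 lower, and the snoRNA host median at 0.16 to 0.22. Of 93 named ratios, 53 kept their direction and side of the threshold under all 15 settings. Signal near background limits ratios of clusters whose total RNA is under 6.40.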

Other observations

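Number of small RNAs per host and other small RNA classes were also summarised over the 7 lines. Of 111 tested hosts with 1 small RNA, 41 were higher and 39 lower (median -0.01). Of 28 hosts with 2 small RNAs, 11 were higher and 8 lower (median 0.08), and of 16 with at least 3, 7 were higher and 2 lower (median 0.24). NCL, with the highest ratio of the shared clusters, is among the last. The 13 clusters that hold a small Cajal body RNA (SCARNA) but no SNORD, SNORA or MIR symbol had 7 higher and 3 lower calls and a median of 0.39, with line medians from -0.00 in GM12812 to 0.49 in GM12813. Of all clusters tested, 31.8% were called higher and 31.7% lower. The values of these classes are descriptions, and no difference between the classes was tested.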
